A study of Mus musculus with 8 samples.

Results

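Structural cluster 6 was a small cluster of 136 cells among the 5514 lung structural cells and 20778 cells in all that were measured by droplet single-cell RNA sequencing in transplanted mouse lungs. The cells were taken by their number in the authors' clustering of structural cells, and no other value was used. The authors named the cluster "T cells". It came from 8 left lung grafts that were placed in male C57BL/6 (B6) recipients without immunosuppression and taken 1 month later. In the B6→B6 group (5 mice) the donor was also B6 and the graft was not rejected. In the HLA→B6 group (3 mice) the donor was an HLA mouse, a B6 mouse of the line Tg(HLA-A2.1)1Enge that bears human HLA-A2.1 as a transgene, and the recipients progressed toward bronchiolitis obliterans syndrome (BOS), the chronic rejection of a lung graft. A graft holds cells of the donor and of the recipient, and the labels of cells do not tell them apart. Each graft gave 1 library, with 10000 cells loaded.

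T cells carry on their surface a T cell receptor, which is built in each cell from rearranged gene segments, together with the CD3 proteins that pass its signal into the cell. Endothelial cells line the blood vessels. In the lung they form a dense bed of capillaries in which 2 kinds are known, general capillary cells and Car4-positive aerocytes, and both are in constant contact with passing lymphocytes, red blood cells and platelets. T cells and endothelial cells are separate lineages, and the question asked of cluster 6 was whether the transcripts of both stood in the same droplets. In droplet sequencing each cell is read through the barcode of its droplet, and each captured transcript is counted once as a unique molecular identifier (UMI). A barcode therefore reports whatever RNA its droplet held.

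T cell genes were present, as the name says. The gene list for T cells held 12 genes, among them Cd3d (chromosome 9, 44981786 to 44987339, GRCm38), Cd3e (chromosome 9, 44998740 to 45009627), Cd3g (chromosome 9, 44969572 to 44980431), the constant segments Trac, Trbc1 and Trbc2 of the receptor, and Lat, Bcl11b, Cd28, Cd5, Cd6 and Themis, which serve signaling or T cell identity. At least 2 UMIs of the list stood in 117 of the 136 cells (86.0%). The list was not exclusive to T cells: 395 of the 1011 cells named natural killer (NK) cells (39.1%) also reached 2 UMIs of it. Trbc1 was seen in 45.9% and Trbc2 in 26.6% of NK cells, and Cd3d in 2.97%. The single marker Cd3d stood in 81 cells (59.6%), against 79.9% of the 5071 cells that the authors named T cells in their clustering of all cells. In structural cluster 0, the 2364 cells that the authors named MHC II+ endothelial cells and that should lack the gene, Cd3d stood in 0.5% of cells. The median depth was 2792.5 UMIs per cell in cluster 6, 1648 in the T cells and 1068.5 in cluster 0.

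Endothelial genes were present too. The endothelial list held 20 genes, led by the junction proteins Pecam1 (chromosome 11, 106654217 to 106750628), Cdh5 (chromosome 8, 104101625 to 104144511) and Cldn5 (chromosome 16, 18776847 to 18778262). At least 2 UMIs of it stood in 104 of the 136 cells (76.5%) and at least 10 UMIs in 82 (60.3%). Cldn5, a protein of the tight junctions between endothelial cells, was seen in 60.3% of cluster 6 cells, in 2.5% of T cells and in 93.4% of cluster 0 cells. Tmem100 and Ramp2, both highly expressed in lung endothelium, were seen in 57.4% and 64.7% of cluster 6 cells and in 2.7% and 2.1% of T cells. The label "T cells" thus covered only one of the sets of genes that these cells held.

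The cells that held both kinds of transcript were counted at equal depth. From each cell 500 UMIs were drawn at random, a depth that 133 of the 136 cells reached, and a cell was counted as holding both when it kept at least 2 UMIs of each list. That was so in 50 of 133 cluster 6 cells (37.6%, 95% interval 29.3 to 46.4), in 87 of 4883 T cells (1.78%) and in 1 of 2244 cluster 0 cells (0.0446%). Without B6→B6 mouse 4 the T cell share was 0.713%, and the 1 cluster 0 cell came from HLA→B6 mouse 1. Thinning left out 188 T cells and 120 cluster 0 cells. Without thinning the shares were 87 of 136 (64.0%), 358 of 5071 (7.06%) and 2 of 2364 (0.0846%). With at least 10 UMIs of each list required in unthinned cells, 48 cluster 6 cells (35.3%) remained against 5 T cells (0.0986%) and 0 cluster 0 cells. Intervals are exact binomial ones and cover counting error only. The clusters were drawn from these same genes, so the shares describe the cluster and are no test of it.

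**Figure D1:**
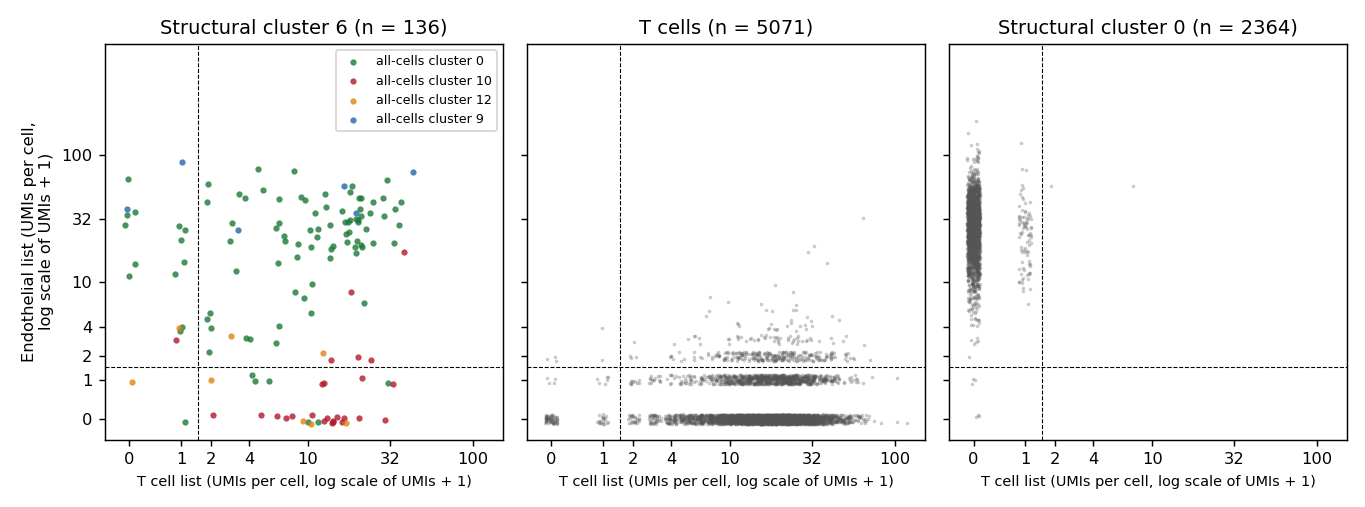
Each point is 1 cell, with the UMIs of the 12-gene T cell list on the x axis and those of the 20-gene endothelial list on the y axis (both on a log scale of UMIs + 1, points jittered), for cluster 6, the T cells and structural cluster 0. Dashed lines mark 2 UMIs, and in cluster 6 colors give the cluster in the clustering of all cells: 87 of the 136 cluster 6 cells lie in the upper right field, against 358 of 5071 T cells and 2 of 2364 cluster 0 cells.

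The T cells of these libraries show how many UMIs of the endothelial list stood in barcodes that the clustering of all cells had placed with T cells. Of this list, Pecam1 was the gene seen in most T cells (11.2%), where Cdh5 was seen in 1.05%. The source of these UMIs was not tested. In the B6→B6 mice 1 to 5, 0.559%, 1.17%, 2.35%, 14.1% and 3.40% of T cells held at least 2 endothelial UMIs. In the HLA→B6 mice 1 to 3 the shares were 8.37%, 1.95% and 7.36%. B6→B6 mouse 4 stood above the other 7 mice, and it also had one of the 2 largest sets of cluster 6 cells. At 500 UMIs per cell, its T cells held both kinds of transcript in 4.51% of cases and its cluster 6 cells in 40.8%. In HLA→B6 mouse 1 the same shares were 1.42% and 40.4%, and in HLA→B6 mouse 2 they were 0.357% and 35.0%. In B6→B6 mouse 3, with 9 cluster 6 cells, they were 0.239% and 22.2% (2 of 9, interval 2.81 to 60.0). The share of cluster 6 cells with both was thus above the share of T cells in each of the 4 mice that had at least 5 cluster 6 cells. The clustering had already kept every cluster 6 cell apart from the T cells, so this order describes the classes and is no test.

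Individual cells show the overlap gene by gene. In each mouse, the cell with the most UMIs of its scarcer list was taken. In HLA→B6 mouse 1 this cell had 3030 UMIs. It held 35 UMIs of the T cell list, among them 3 of Cd3d, 3 of Cd3e, 4 of Cd3g, 3 of Trac and 13 of Trbc2, and 41 of the endothelial list, among them 11 of Cldn5, 7 of Tmem100, 2 of Pecam1 and 1 of Cdh5. The same cell held 2 UMIs of Cd8a and 3 of Cd8b1, the subunits of the CD8 coreceptor. In B6→B6 mouse 4 the cell so chosen had 4551 UMIs, 42 of the T cell list and 76 of the endothelial list, with 14 UMIs of Car4. In HLA→B6 mouse 2 it had 3446 UMIs, with 21 of each list. The single cluster 6 cell of B6→B6 mouse 1 was of another kind: it held 6 UMIs of the T cell list, none of the endothelial list, and 528 UMIs of the hemoglobin gene Hbb-bs.

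Cluster 6 was not uniform in what stood beside the T cell genes. The authors also clustered all cells together, and there the 136 cells had fallen into 4 clusters that were all named lung structural cells: 96 in cluster 0 of that clustering, 26 in cluster 10, 8 in cluster 12 and 6 in cluster 9. These are called all-cells clusters below. All-cells cluster 10 otherwise held mainly structural cluster 4, named red blood cells. All-cells cluster 12 held mainly structural cluster 7, whose 92 cells all carried platelet genes and were named epithelial cells. All-cells cluster 9 held mainly structural cluster 2, also named epithelial cells, in which 529 of 529 cells carried the endothelial list and 95.1% the aerocyte list. None of the 136 cells had been put with T cells in the clustering of all cells.

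The list levels within cluster 6 followed that division. Levels are given in CPM, the UMIs of a gene or list summed over the cells of a set and scaled to 1000000 UMIs of that set. In the 96 cells of all-cells cluster 0, the T cell list summed to 4652 and the endothelial list to 10067 CPM. In the 6 cells of all-cells cluster 9, the T cell list was at 3771, the endothelial list at 14899, and the aerocyte list (Car4, Ednrb, Tbx2, Fibin and Apln) at 4051 against 266 in the 96 cells. In the 26 cells of all-cells cluster 10, the endothelial list was at 337, while the red blood cell list (4 hemoglobin genes and Alas2, the first enzyme of heme synthesis, together called hemoglobin UMIs below) took 611009 CPM. In the 8 cells of all-cells cluster 12, the endothelial list was at 1153 and the platelet list at 9640, against 89 in the 96 cells. T cell genes were the part that all 4 sets shared, at 3311 CPM in all-cells cluster 10 and 6077 in all-cells cluster 12.

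Single genes gave the same picture. Ppbp and Pf4, chemokines stored in platelet granules, stood at 4086 and 3772 CPM in the 8 cells of all-cells cluster 12 and at 40.4 and 36.3 in the 96 of all-cells cluster 0. Car4, a carbonic anhydrase on the surface of aerocytes, was at 3026 in the 6 cells of all-cells cluster 9 and at 226 in the 96. Gpihbp1, which anchors lipoprotein lipase to capillaries, and Plvap, a protein of endothelial fenestrae, went the other way: they stood at 831 and 460 in the 96 cells and at 279 and 0 in the 6. Hbb-bs (chromosome 7, 103826534 to 103828096) took 269601 CPM in the 26 cells of all-cells cluster 10. Hba-a1 and Hba-a2, and likewise Hbb-bs and Hbb-bt or Trbc1 and Trbc2, are close copies, and their values are uncertain where reads fit both copies. One cell of all-cells cluster 12 carried 148 UMIs of neutrophil genes, against 0 in the other 7.

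The 136 cells could be sorted nearly completely by these lists. A further list held 7 NK cell genes: Ncr1, Klrb1c, Klra8, Klre1, Gzma, Prf1 and Eomes. At least 2 UMIs of the T cell or the NK cell list stood in 130 cells (95.6%). In 125 cells (91.9%, interval 86.0 to 95.9) a lymphocyte list stood together with at least 2 endothelial, at least 10 hemoglobin or at least 2 platelet UMIs. The same was true of 384 of 5071 T cells (7.57%) and of 59 of 1011 NK cells (5.84%). Of the 32 cluster 6 cells with fewer than 2 endothelial UMIs, 20 held at least 10 hemoglobin UMIs, 6 held at least 2 platelet UMIs, and 6 held neither. In 5 of those 6, between 4 and 33 T cell UMIs were counted. The remaining one, with 446 UMIs in all, held 1 T cell UMI.

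Not all of the lymphocyte transcripts were those of T cells. Of the 19 cells with fewer than 2 T cell UMIs, 12 held at least 10 UMIs of the NK cell list, which none of 97 such cells did among the T cells. Of the 26 cells with at least 2 UMIs of the NK cell list, 13 also held at least 2 of the T cell list. In all, 19 of the 136 cells (14%) reached 10 NK UMIs, against 28 of 5071 T cells (0.552%) and 950 of 1011 NK cells (94.0%). Gzma, a granzyme of killer cells, stood at 1106 CPM in cluster 6, at 73.7 in T cells, at 5.9 in cluster 0 and at 13726 in NK cells. Klra8, a receptor of NK cells, stood at 110, 1.6, 1.1 and 1143 in the same order. The NK list summed in the 4 mice with at least 5 cells to 1794 and 1498 CPM in B6→B6 mice 3 and 4 and to 1541 and 1864 in HLA→B6 mice 1 and 2, against 148 to 381 in the T cells of those mice.

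Among the T cell subsets, Cd8 was the more frequent coreceptor. Cd8a or Cd8b1 without Cd4 was seen in 47 of the 136 cells (34.6%, interval 26.6 to 43.2), Cd4 without Cd8 in 18 (13.2%, 8.04 to 20.1) and both in 5. In the T cells the shares were 45.2% and 11.5%. Per mouse, the cells with Cd4 only were 2 and those with Cd8 only 23 in B6→B6 mouse 4, 12 and 15 in HLA→B6 mouse 1, 1 and 5 in HLA→B6 mouse 2, and 2 and 4 in B6→B6 mouse 3. Among the T cells of the same mice the Cd4-only share of the 2 kinds was 9.09%, 33%, 15.7% and 26.0%, so that the mouse with the lowest share in T cells, B6→B6 mouse 4, also had the lowest in cluster 6 (8%). Trdc, the constant segment of the delta chain, was seen in 6 cells (4.41%) against 4.87% of T cells. Foxp3, the factor that defines regulatory T cells, was seen in 0 of 136 cells against 1.81% of T cells, and a count of 0 in 136 cells leaves an exact upper bound of 2.68%.

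Levels in CPM were lower in cluster 6 than in the cells that each list names. In the 3 mice with at least 10 cells of each class (B6→B6 mouse 4 and HLA→B6 mice 1 and 2), the T cell list was at 4561, 4381 and 3486 CPM in cluster 6. In the T cells of those mice it was at 14061, 10353 and 9927. The ratio was 0.366 ± 0.0511 (SD, n = 3). The endothelial list was at 7331, 8441 and 5138 in cluster 6 and at 29989, 25101 and 22544 in structural cluster 0, a ratio of 0.270 ± 0.0584. With the 96 cells of all-cells cluster 0 alone, the ratios were 0.388 ± 0.0466 for the T cell list and 0.381 ± 0.0329 for the endothelial list. All 12 T cell genes and all 20 endothelial genes stood between their levels in T cells and in cluster 0. The same held for all 7 pan-leukocyte genes, for all 6 general capillary genes and for all 7 genes of MHC class II, the molecules that present antigen to CD4 T cells.

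This intermediate position went beyond the lists. Among the 1217 genes with at least 100 CPM in cluster 6 and UMIs in cells of at least 3 mice, 812 (66.7%) stood between their levels in T cells and in cluster 0, 345 stood below both and 60 above both. Among the 10 genes furthest above the larger of both were Hbb-bt, Hbb-bs, Hba-a2, Hba-a1, Alas2, Klra8, Gzma, Pf4 and Tyrobp, that is, genes of red blood cells, NK cells and platelets, with Tyrobp a signaling adaptor of NK and myeloid cells. When 4 more classes were set beside T cells and cluster 0 (NK cells and structural clusters 2, 4 and 7), 1207 of the 1217 genes (99.2%) lay within the range of the 6 classes. The other 10 lay above it by at most 1.12-fold, led by mt-Nd2 at 679 CPM. No gene of cluster 6 at this level therefore exceeded every one of the 6 classes 2-fold. The lower end of the range could hardly be missed. In structural cluster 4 the red blood cell list took 953477 CPM, which left little for other genes, and 0 genes lay below the 6 classes. The share of 99.2% thus speaks only to the upper end. The genes furthest above the T cell level were, beside hemoglobin genes, Alas2 and Klra8, Lyve1 and Esam, which are known from endothelium, and 8430408G22Rik and BC028528. Those furthest above cluster 0 were Hbb-bt and Ccl5, Ptpn22, Il7r, Sh2d1a, Cd3e, Satb1, Cd28, Klrk1 and Cd8b1, all of which serve lymphocytes apart from the hemoglobin.

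Cluster 6 barcodes held more RNA than either class. In B6→B6 mouse 4, the median was 2255.5 UMIs per cell in cluster 6, 973.5 in T cells and 1034 in cluster 0. In HLA→B6 mouse 1, the medians were 3001.5, 1519 and 1100, and in HLA→B6 mouse 2 they were 3289, 1928 and 876. The ratio to T cells was 2.00 ± 0.306 and that to cluster 0 was 2.89 ± 0.799. Set against the sum of the T cell and cluster 0 medians, the cluster 6 median was 1.12-fold, 1.15-fold and 1.17-fold as large. With the members in all-cells cluster 0 alone, it was 0.998-fold, 1.07-fold and 1.15-fold as large in the same mice. The spread was wide, from 365 to 8684 UMIs, and in B6→B6 mouse 4 the first quartile was 772.75. By all-cells cluster, the medians were 2532.5 (cluster 0), 3792.5 (cluster 9), 4187 (cluster 10) and 850 (cluster 12). Genes per cell were also more, with a median of 1219.5 against 811 in T cells and 705 in cluster 0, but at 500 UMIs per cell the expected number was 359, between 338 in T cells and 380 in cluster 0.

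**Figure D2:**
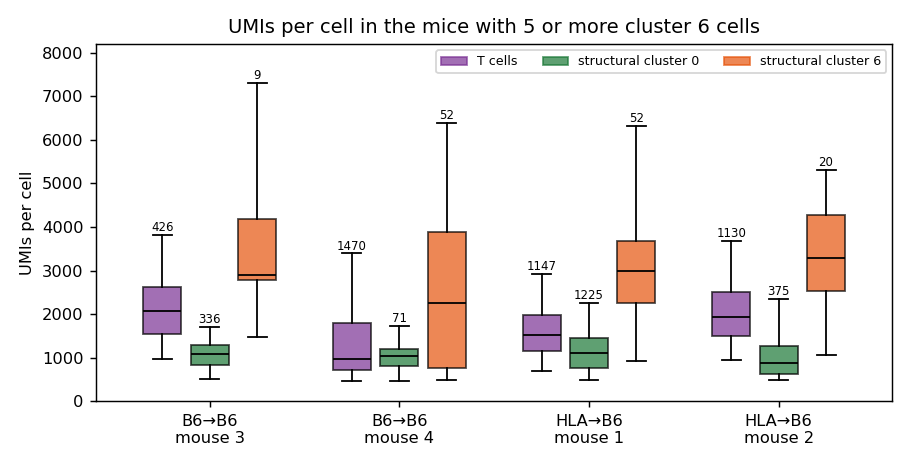
UMIs per cell (y axis) of T cells, structural cluster 0 and structural cluster 6 in the 4 mice with at least 5 cluster 6 cells, as boxes of the quartiles with the median as a line, whiskers from the 5th to the 95th percentile, and the number of cells above. The cluster 6 median is the highest of the 3 classes in each mouse.

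The profile of each cell was also written as a mixture. The UMIs of a cell were fitted by maximum likelihood as parts of the summed profiles of 6 classes: T cells, NK cells and structural clusters 0, 2, 4 and 7. Such a fit divides any cell among the classes offered, and it was run in the same way on 300 T cells and 300 cluster 0 cells drawn at random. Both of these classes have their own profile among the 6, while cluster 6 has none. Cells with their own profile are drawn toward the ends of the scale, so the comparison describes the classes and is no test. No class without a profile of its own was run beside cluster 6. The T cell and NK cell part together had a median of 52.6% in the 136 cells (range 8.31% to 95.2%), and it lay between 10% and 90% in 132 of them (97.1%). It lay there in 42 of the 300 T cells (14%) and in 18 of the 300 cluster 0 cells (6.00%). For the sum of all 136 cells, the T cell part was 44.4% and the NK part 5.90%, beside 26.0% for structural cluster 0, 3.12% for cluster 2, 19.4% for cluster 4 and 1.14% for cluster 7.

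**Figure D3:**
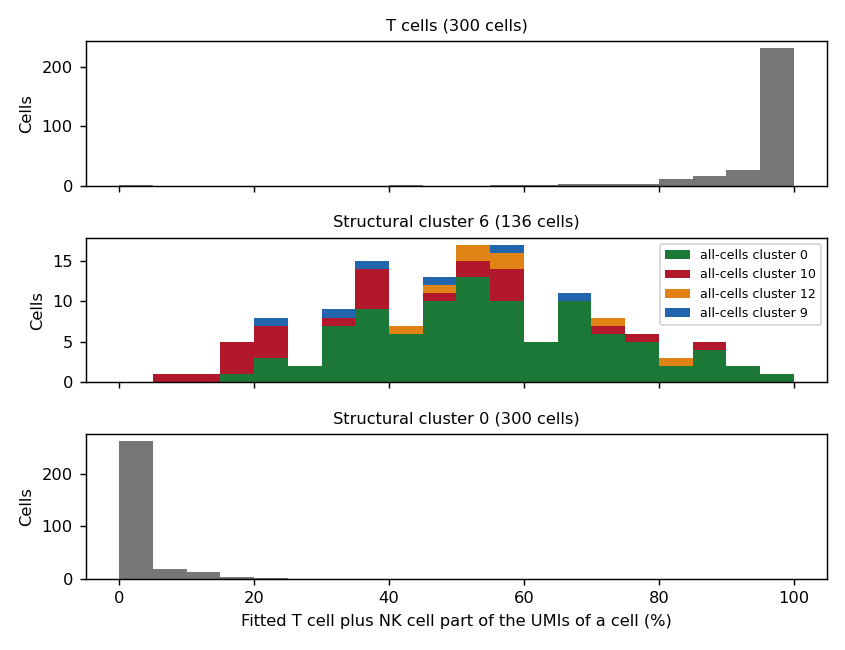
Number of cells (y axis) by the fitted T cell plus NK cell part of their UMIs (x axis, percent, bins of 5) in 300 T cells, the 136 cluster 6 cells, colored by all-cells cluster, and 300 cells of structural cluster 0. The cluster 6 cells fill the middle of the scale, with 132 of 136 between 10% and 90%, where 42 T cells and 18 cluster 0 cells lie. T cells and cluster 0 have their own profile in the fit and cluster 6 has none.

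The second part of the mixture changed with the all-cells cluster. The 96 cells of all-cells cluster 0 were fitted as 49.7% T cell, 7.03% NK cell and 42.0% structural cluster 0. The 6 cells of all-cells cluster 9 were fitted as 35.0% T cell, 9.07% NK cell and 55.9% structural cluster 2, the cluster with aerocyte genes. The 26 cells of all-cells cluster 10 came out as 33.8% T cell and 63.8% structural cluster 4, with its hemoglobin genes, and the 8 cells of all-cells cluster 12 as 53.8% T cell, 16.0% NK cell and 27.9% structural cluster 7. With only T cells and structural cluster 0 offered, the T cell part was 85.1% in B6→B6 mouse 4, 40.3% in HLA→B6 mouse 1 and 75.4% in HLA→B6 mouse 2. These values moved with the structural cluster offered: with cluster 1, 2 or 5 in place of cluster 0 they lay between 74.4% and 85.6% in B6→B6 mouse 4, between 32.5% and 72.5% in HLA→B6 mouse 1 and between 34.4% and 85.3% in HLA→B6 mouse 2. With the cells of all-cells cluster 0 alone it was 65.3%, 51.5% and 60.0% in the same mice.

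Computed doublet calls and shared barcodes were read beside these counts. Scrublet, which scores how near a cell lies to simulated sums of cell pairs from its own library, marked 47 of the 136 cells (34.6%), 17 of 5071 T cells (0.335%), 1 of 2364 cluster 0 cells (0.0423%) and 256 of all 20778 cells (1.23%). The marked cells were 45 of the 96 in all-cells cluster 0, 1 of 6 in cluster 9, 0 of 26 in cluster 10 and 1 of 8 in cluster 12. By mouse they were 0 of 1 in B6→B6 mouse 1, 1 of 2 in B6→B6 mouse 2, 6 of 9 in B6→B6 mouse 3, 14 of 52 in B6→B6 mouse 4, 26 of 52 in HLA→B6 mouse 1 and 0 of 20 in HLA→B6 mouse 2. The cut on the score was set separately in each library. Median scores in cluster 6 were 0.315 and 0.163 in B6→B6 mice 3 and 4 and 0.253 and 0.156 in HLA→B6 mice 1 and 2. In the T cells of these mice they were 0.018, 0.032, 0.022 and 0.038. When the marked cells were left out, 29.1% of the remaining cluster 6 cells still held both kinds of transcript at 500 UMIs. Cell barcodes that another library also held made up 4.41% of cluster 6 (6 cells) and 4.88% of all cells. The sources used here do not name a step that removed doublets before deposit, and whether these droplets held joined cells, separate cells or single cells with both kinds of RNA was not tested.

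Another small cluster of structural cells also held lymphocyte genes, and only hemoglobin was counted beside them. Structural cluster 10, which the authors named B cells, held 31 cells, all with at least 2 UMIs of the B cell list, which includes Cd79a, Cd79b, Ms4a1, Ebf1 and Pax5. In 21 of the 31, at least 10 hemoglobin UMIs stood beside them. The 31 cells lay in the same all-cells clusters as cluster 6, in other proportions: 21 in cluster 10, 5 in cluster 9, 4 in cluster 0 and 1 in cluster 12. In cluster 6, 26 of 136 cells held T cell and hemoglobin UMIs at those limits, while 22 of 5071 T cells held at least 10 hemoglobin UMIs. The B cell list itself reached 2 UMIs in 2 cluster 6 cells.

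Cluster 6 was unevenly spread over the mice. In the B6→B6 mice 1 to 5 it held 1, 2, 9, 52 and 0 cells, which was 0.310%, 1.49%, 1.21%, 4.57% and 0% of the structural cells of each mouse. In the HLA→B6 mice 1 to 3 it held 52, 20 and 0 cells, or 2.60%, 2.87% and 0%. The groups overlapped throughout, and 3 mice (B6→B6 mouse 4 and HLA→B6 mice 1 and 2) gave 124 of the 136 cells. The exact 95% upper limit of the share was 3.52% in B6→B6 mouse 5 (103 structural cells) and 0.969% in HLA→B6 mouse 3 (379), the mice without such cells.

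**Figure D4:**
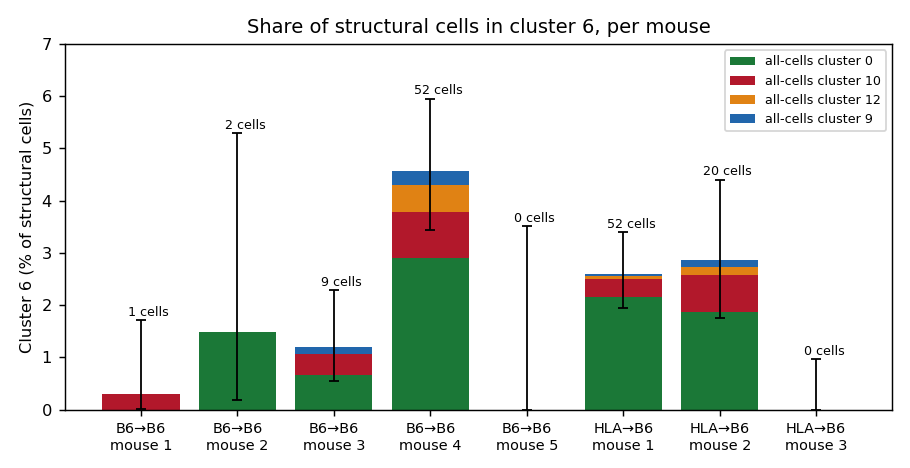
Share of structural cells in cluster 6 (y axis, percent) in each of the 8 mice, stacked by all-cells cluster, with exact 95% binomial intervals that cover counting error only and the number of cells above. The 5 B6→B6 mice range from 0% to 4.57% and the 3 HLA→B6 mice from 0% to 2.87%.

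The mean share was 1.83% ± 1.59 (SD, n = 3) in HLA→B6 and 1.52% ± 1.82 (n = 5) in B6→B6 mice. The difference of 0.308 percentage points was smaller than the spread between mice (two-sided exact permutation test over all 56 splits, p = 0.857, Benjamini-Hochberg 1.00 over 2 tests, smallest possible p 0.0357). Barcodes were shared between libraries beyond the expected number in a set of 5 mice (B6→B6 mice 1 to 3 and HLA→B6 mice 1 and 2). Within that set the difference was 1.73 percentage points, and within the other 3 mice it was -2.29, so its sign turned. The share of cluster 6 cells with both kinds of transcript at 500 UMIs was 37.7% ± 3.81 in 2 HLA→B6 mice and 31.5% ± 13.1 in 2 B6→B6 mice, and this design cannot reach a p under 0.333 (exact permutation test, p = 1.00). Without B6→B6 mouse 3, the difference went from 6.17 to -3.12 percentage points.

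Between the groups, the genes of cluster 6 that passed the test were mainly those of MHC class II. UMIs were summed per mouse over the 4 mice with at least 5 cluster 6 cells and compared by edgeR's quasi-likelihood test with Benjamini-Hochberg adjustment. The sums held 32889 and 132856 UMIs in B6→B6 mice 3 and 4 and 161595 and 65979 in HLA→B6 mice 1 and 2. Of 1343 genes tested, 5 (0.372%) passed an adjusted p of 0.05: Cd74, H2-Ab1, H2-Eb1 and Igkc were higher in HLA→B6 (0.298%), and Fos was lower (0.0745%). Leaving out 1 mouse, with the lone mouse of its group assumed to vary like the others, gave 34 genes without B6→B6 mouse 3, 11 without B6→B6 mouse 4, 12 without HLA→B6 mouse 1 and 22 without HLA→B6 mouse 2. Cd74, H2-Ab1 and H2-Eb1 passed in each of these 4 fits, with adjusted p of at most 0.0235.

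H2-Ab1 (chromosome 17, 34257689 to 34269419), a chain of the MHC class II molecule I-A, stood at 91.2 and 158 CPM in the cluster 6 cells of B6→B6 mice 3 and 4 and at 1306 and 1015 in those of HLA→B6 mice 1 and 2. H2-Eb1 (chromosome 17, 34305867 to 34316674), a chain of class II in the neighboring gene, stood at 91.2 and 113 against 835 and 591. Cd74, the invariant chain that guides class II molecules through the cell, stood at 791 and 271 against 6331 and 4062. The groups did not overlap for these 3 genes, as for 35.4% of all 1343 genes tested. The log2 fold changes were 2.88 ± 0.37 (SE, adjusted p = 0.0339) for H2-Ab1, 2.56 ± 0.39 (adjusted p = 0.0423) for H2-Eb1 and 3.34 ± 0.49 (adjusted p = 0.0387) for Cd74 by edgeR on 4 mice.

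Other genes of the class II list did not pass in edgeR. Of 7 genes, 5 could be tested, 3 rose in edgeR and 4 in DESeq2 (0.521% of all genes passed in DESeq2), and the median log2 fold change was 2.95, beside 0.03 over all genes tested. H2-Aa and H2-DMb1 had log2 fold changes of 2.95 and 4.34 with edgeR adjusted p of 0.0732 and 0.146, and H2-Aa passed in DESeq2 (adjusted p = 0.0115). The partner of the T cell genes differed between these mice as well. Members in all-cells cluster 0 were 5 of 9 and 33 of 52 in the B6→B6 mice and 43 of 52 and 13 of 20 in the HLA→B6 mice, and hemoglobin took 32.8% and 23.4% of the cluster 6 UMIs in the former and 10.9% and 20.7% in the latter. With the members in all-cells cluster 0 alone, the summed class II list stood at 3265 and 985 CPM in B6→B6 and at 13107 and 11588 in HLA→B6 mice, and 4 of the 4 class II genes tested there passed in edgeR, beside 7 of all 851 genes (0.823%), 6 of them higher in HLA→B6 (0.705%), with log2 fold changes of 2.70 for H2-Ab1, 2.5 for H2-Eb1 and 3.19 for Cd74.

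Class II genes are borne by the endothelial cells of structural cluster 0, and its values are set here beside those of cluster 6. In structural cluster 0, the class II list stood at 2783, 11581, 15101, 7133 and 490 CPM in B6→B6 mice 1 to 5 and at 21060, 26563 and 16722 in HLA→B6 mice 1 to 3. In the T cells it lay between 42.3 and 201 in all 8 mice. The log2 fold change of H2-Ab1 was 1.43 (adjusted p = 0.159) in cluster 0 and 0.46 (adjusted p = 0.969) in T cells over the 8 mice, by edgeR. For Cd74 the values were 1.60 (adjusted p = 0.418) and 0.34 (adjusted p = 0.978), and for H2-Eb1 they were 1.60 (adjusted p = 0.142) and 0.78 (adjusted p = 0.929). Of the 7 class II genes, H2-DMa, which did not pass the filter on low counts in cluster 6, rose in cluster 0 (log2 fold change 1.58, adjusted p = 0.0177). In cluster 0, 25 of 3645 genes (0.686%) passed, 22 higher in HLA→B6 (0.604%) and 3 lower (0.0823%), and in T cells 5 of 7164 (0.0698%) passed, all 5 higher. The difference between the fold changes of cluster 6 and of cluster 0 was not tested. The place of structural cluster 0 within all-cells cluster 0 also differed between mice. It held 336 and 71 cells in B6→B6 mice 3 and 4, beside 509 and 826 structural cells in all-cells cluster 0. In HLA→B6 mice 1 and 2 it held 1225 and 375, beside 1886 and 609. Class II in structural cluster 1, which made up 29.6% of all-cells cluster 0, is not given here. Whether this make-up bears on the class II values was not tested.

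**Figure D5:**
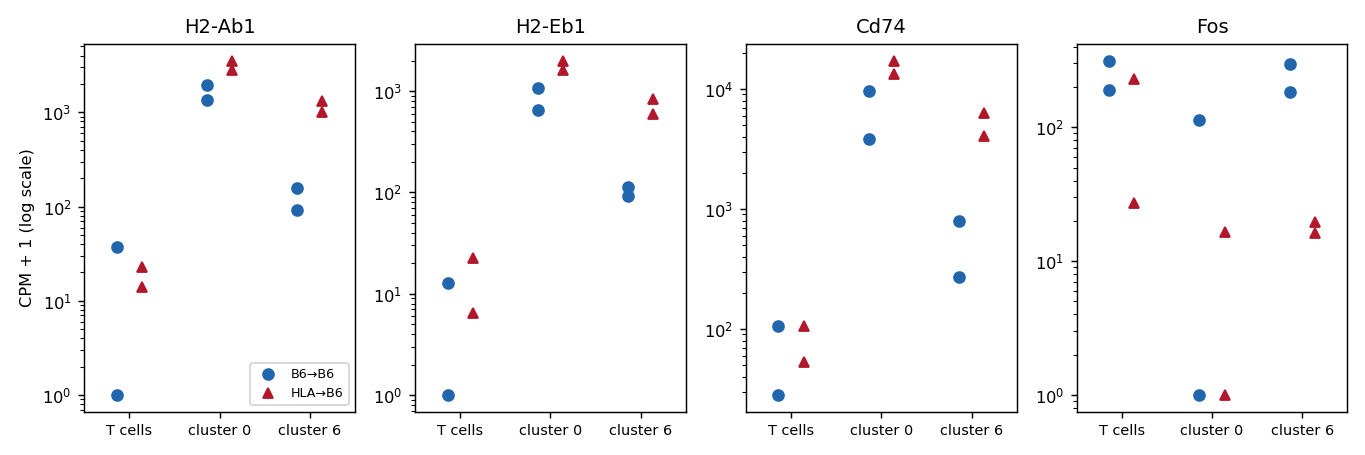
CPM + 1 (y axis, log scale) of H2-Ab1, H2-Eb1, Cd74 and Fos in the T cells, structural cluster 0 and structural cluster 6 of the 4 mice with at least 5 cluster 6 cells, each point 1 mouse (blue circles B6→B6 mice 3 and 4, red triangles HLA→B6 mice 1 and 2). In cluster 6 the groups do not overlap for these 4 genes, which were chosen because they passed the test, as for 35.4% of all genes tested, with H2-Ab1 at 91.2 and 158 against 1306 and 1015.

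Igkc, the constant part of the kappa light chain that plasma cells and B cells make, stood at 0 in both B6→B6 mice and at 446 and 227 CPM in the HLA→B6 mice (edgeR adjusted p = 0.0387). Against a floor of 3 counts over the B6→B6 group, the pooled HLA→B6 level was at least 21.1-fold higher. In the same mice it stood at 0 and 16.3 against 351 and 80.7 in T cells and at 0 and 0 against 130 and 144 in cluster 0, classes that should not make it. In cluster 0 it passed the test (adjusted p = 8e-05). Without HLA→B6 mouse 1, the adjusted p of Igkc in cluster 6 was 0.504. Igkc, Cd74, H2-Ab1 and H2-Eb1 are also among the genes from which the study estimated free RNA.

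Fos (chromosome 12, 85473890 to 85477273), an immediate early transcription factor gene, stood at 182 and 294 CPM in the B6→B6 mice and at 18.6 and 15.2 in the HLA→B6 mice, a log2 fold change of -4.00 ± 0.53 (edgeR adjusted p = 0.0339). In T cells it stood at 188 and 313 against 26.4 and 229, and over all 8 mice its log2 fold change was -1.44 there (adjusted p = 0.599). In structural cluster 0 it stood at 0 and 113 against 15.6 and 0, with overlapping groups in these 4 mice, and its log2 fold change over all 8 mice was -3.74 (edgeR adjusted p = 0.0605). The difference between these fold changes was not tested. Fos was the only one of 7 immediate early genes tested in cluster 6 that passed, beside 0.372% of all genes tested. The median of the list was -0.49, and 0 of the 7 had a log2 fold change above 0, beside 51.8% of all genes tested.

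Few genes passed at all, and none of them was on the T cell or endothelial list. In edgeR's test, 0 of 9 T cell genes (median log2 fold change -0.35) and 0 of 15 endothelial genes (-0.11) passed. The share over all genes tested was 0.372%, so that 0 calls in lists of this size does not set them apart. At an unadjusted p under 0.05 there was 1 of each, beside 85 of all 1343 genes tested (6.33%), and DESeq2 called 0 of each. Of the interferon response list, which holds class I genes, guanylate-binding proteins and immunoproteasome genes that interferon induces, 0 of 14 genes passed in edgeR or DESeq2. Their median log2 fold change was 1.33, all 14 were above 0, beside 51.8% of all genes tested, and 9 had an unadjusted p under 0.05, beside the 6.33% given above. In structural cluster 0, over all 8 mice, 8 of 15 genes of this list rose by edgeR (Gbp2, Gbp3, Gbp4, Gbp7, Igtp, Iigp1, Irgm1 and Tap1), beside 0.604% of all genes tested there, and in T cells 0 of 15 passed. Gbp2, a guanylate-binding protein, came nearest in cluster 6 with a log2 fold change of 3.44 (edgeR adjusted p = 0.0732), and in cluster 0 its log2 fold change was 2.15 (adjusted p = 0.00446). The effector list had a median of 0.78 over 4 genes, with Ccl5 at 0.86 and Nkg7 at 1.15, and 0 passed in either tool (2 at an unadjusted p under 0.05).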

How the data were processed

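The deposited values are UMI counts per gene and cell without normalization, which the authors obtained with Cell Ranger (10x Genomics 3′ kit, mm10/GRCm38) per the labels and methods. They state that barcodes with fewer than 200 UMIs and genes in fewer than 3 cells were left out, that free RNA was removed with SoupX, and that Seurat clustered the cells. Some deposited T cell barcodes held as few as 2 UMIs, and it is not stated whether SoupX had already been applied to the deposited counts. All 20778 cells and 17921 genes were kept and 0 columns were left unused. Median depth was 1356 to 1948 UMIs per cell in the 8 mice, and totals were 1669076 to 12445769 UMIs. The cell names number the HLA→B6 mice 2, 3 and 5, while the deposited table of cells numbers the same cells' mice 1, 2 and 3, and the latter numbers are used.

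Shares carry exact 95% binomial intervals. Shares per mouse were compared by two-sided exact permutation of mice. For the fold of Igkc, a count of 0 was read as at most 3 counts. Sums per mouse were fitted with edgeR 4.0.16 (R 4.3.3, TMM, filterByExpr), with DESeq2 1.42.0 as an alternative, and Scrublet was run per mouse at an expected rate of 0.06 with scanpy 1.11.5 under Python 3.11.15. Scripts were tested on simulated data. The planned minimum of 10 cells per mouse left 1 B6→B6 mouse in cluster 6, so the fit with at least 5 cells is reported. With 2 mice a group, p-values rest on few mice.

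Members and all 28 gene lists were chosen with earlier results of these data known. The genes named are those of the lists, all genes that passed in cluster 6, and the 10 with the highest ratio of the cluster 6 level to T cells, to cluster 0 and to the larger of both. Some genes that this rule or the lists take in are not reported here by name. Hemoglobin, platelet and NK counts, all-cells clusters and the 6-class mixture were chosen after the data were seen. Main fits treated the mice as unpaired. Whether equal numbers pair them is not known. Deviations of same-numbered mice correlated at 0.0514, 0.132 and -0.185, but low correlations do not exclude pairing.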

Additional observations from a re-analysis of the deposited data

Results flagged for a closer look

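B6→B6 mouse 4 stood apart from the other 4 B6→B6 mice in 2 measures. It held 52 cluster 6 cells, where the others held 0 to 9, and the gap to the nearest was 0.827 of the range. This count is not scaled to the structural cells, of which it had 1137 and the others 103 to 744. As a share of structural cells it stood at 4.57%, where the others lay at 0% to 1.49%. Of its T cells, 14.1% carried at least 2 endothelial UMIs, where the others lay at 0.559% to 3.40%, with a gap of 0.791 of the range. Chance alone marks about 1 in 20 groups of 5 in this way. In HLA→B6 mouse 3, 7.36% of T cells carried at least 2 endothelial UMIs and 0 cluster 6 cells were found.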

How the results depend on the processing

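The difference in the share of structural cells between HLA→B6 and B6→B6 mice changed sign within the libraries that share barcodes and those that do not (-0.276 percentage points, averaged), and it ranged from -0.216 to 1.22 with 1 mouse left out, negative without B6→B6 mouse 5 (-0.0709) or HLA→B6 mouse 1 (-0.0803) or 2. With the replicate block (pairs 1 to 3) it was 0.821. The share of cluster 6 cells with both kinds of transcript was 59.4% and 22.6% with at least 1 or 3 UMIs of each list, 64.0% without thinning, 51.3% at 1000 UMIs, 9.02% with 3 genes per list and 29.1% without Scrublet doublets. For T cells it was 11.1%, 0.348%, 7.06%, 2.30% and 0.225% in the same order, 0.713% to 2.21% with 1 mouse left out, and 0.0986% at 10 UMIs of each list. For cluster 0 it was 1.96% with 1 UMI of each list, 0% with 3 UMIs, 3 genes or 10 UMIs, and 0% to 0.0529% with 1 mouse left out. The difference between groups in that share was -6.03 points without thinning and -3.12 with at least 10 cells per mouse, and -3.12 to 15.5 with 1 mouse left out. The endothelial level ratio was 0.381 with members of all-cells cluster 0. The causes were not tested.

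Genes called in cluster 6 were 19 without a filter and 11 to 34 with 1 mouse left out (34 without B6→B6 mouse 3, 11 without mouse 4, 12 and 22 without HLA→B6 mice 1 and 2). There the lone mouse of a group was assumed to vary like the others. A minimum of 20 cells, or leaving out Scrublet doublets, left fewer than 2 mice in a group and gave no fit. In T cells the count was 37 by DESeq2, 61 without a filter and 0 to 24 with 1 mouse left out (0 without B6→B6 mouse 1 or 5 or HLA→B6 mouse 1 or 2, 24 without B6→B6 mouse 4). In cluster 0 it was 10, 115 and 2 to 52 (6, 8 and 38 without B6→B6 mice 1, 3 and 5, and 10, 2 and 52 without HLA→B6 mice 1, 2 and 3). With the replicate block it was 58 and 100, and whether equal numbers pair the mice is not known (correlations 0.0514, 0.132 and -0.185). By these numbers, no paired analysis was possible for cluster 6 genes because mice 3 and 4 were compared with mice 1 and 2. The 3 class II genes passed under every alternative that gave a value. Igkc had an adjusted p of 0.504 without HLA→B6 mouse 1 and passed otherwise, and Fos passed wherever it was tested, with no value without B6→B6 mouse 4. Of 178 values under alternatives, 128 were taken as unchanged. These kept their direction and side of the threshold or moved by less than the spread. Counts of genes called were taken as unchanged when they stayed within a set fold of the main count. Depth limited subsets: 133 of 136 cells reached 500 UMIs.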
